A study of Mus musculus with 69 samples.

Results

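The lungs described here came from 5 female C57BL/6 mice killed 28 days after a single intratracheal instillation of 54 µg of NRCWE-030, a titanium dioxide nanomaterial given at 18, 54 or 162 µg in the study, so that 54 µg was the middle dose. They were set against 5 control mice of the same day, which received the vehicle, water with 2% serum. The 10 arrays, of 69 in the series, were chosen by their titles, and on each the whole-lung RNA of 1 mouse, in Cy5, was hybridised together with universal mouse reference RNA, in Cy3. All mice carried the same genetic background, were bought at 5 to 7 weeks of age, acclimatised for 1 to 3 weeks and kept under 12 h of light a day, and the labels name no allele and no hour of lung collection. The unit is the log2 of lung over reference, so a difference of 1 is a doubling, and a gene was called when its adjusted p in limma was under 0.05 (18656 genes tested).

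On the 10 arrays, between 57.4% and 71.3% of the spots were well above background in Cy5 and 0 were saturated. The defining markers of lung were far above the reference RNA in both groups: Sftpc, the surfactant protein of alveolar type 2 cells, had a mean log2 ratio of 7.32 in controls and 7.40 in treated lungs, Ager of alveolar type 1 cells 5.56 and 5.45, and Scgb1a1 of airway secretory cells 6.95 and 7.07. On 1 slide, which held treated array 2, control array 3 and 1 array each of 18 and 162 µg, the median Cy3 spot signal was 229 to 241.5, against 80.5 to 128 on the other arrays of these 4 groups. On treated array 5 local backgrounds that the scanner software marked as outliers drew the fitted Cy5 background mean to -243, and values after replacing such backgrounds (mean at least -10.4 on the 10 arrays) are used throughout. Array 5 of 18 µg also stood apart, with a correlation of 0.922 between its deposited log2 values and those computed from its spots, against at least 0.995 on the 10 arrays.

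The mammalian circadian clock is a feedback loop of transcription factors. ARNTL (BMAL1) pairs with CLOCK to switch on the genes of the PER, CRY and REV-ERB repressors through E-boxes, and the REV-ERB proteins NR1D1 and NR1D2 in turn repress Arntl through ROR elements. The PAR bZIP factors DBP, HLF and TEF carry the rhythm to output genes through D-boxes, where NFIL3 opposes them. In the lung the clock is known to set the daily course of inflammatory and barrier genes.

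For 8 of the 10 genes called at 54 µg, 10 promoter windows of 300 bases (250 before to 50 after the start) were found in RefSeq (GRCm38.p6), and not for Mmp9 and Spon2. Each window was searched on both strands for the E-box CACGTG, for the D-box letters TTATGTAA or TTACGTAA, and for the ROR element letters TAGGTCA or TGGGTCA, none of which overlap each other in the windows shown. Of all 32851 promoter windows, 7.15% held such an E-box, 1.06% a D-box and 6.45% a ROR element. Among the 10 windows, 1 of Tspan4 held an E-box, 1 of Arntl held a ROR element and 0 held a D-box. These are shown with that of Dbp, the gene with the largest called difference, which held none, and matches are in capitals. A match describes the letters of the window and is not a site of binding.
Arntl, chr7:113207261-113207560, plus strand: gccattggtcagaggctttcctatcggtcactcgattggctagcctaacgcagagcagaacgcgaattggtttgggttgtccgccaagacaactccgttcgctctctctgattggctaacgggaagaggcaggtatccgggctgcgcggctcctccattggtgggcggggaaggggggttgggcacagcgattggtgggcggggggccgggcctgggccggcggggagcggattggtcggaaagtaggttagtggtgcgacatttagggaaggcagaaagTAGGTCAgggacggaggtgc
Tspan4, chr7:141476130-141476429, plus strand: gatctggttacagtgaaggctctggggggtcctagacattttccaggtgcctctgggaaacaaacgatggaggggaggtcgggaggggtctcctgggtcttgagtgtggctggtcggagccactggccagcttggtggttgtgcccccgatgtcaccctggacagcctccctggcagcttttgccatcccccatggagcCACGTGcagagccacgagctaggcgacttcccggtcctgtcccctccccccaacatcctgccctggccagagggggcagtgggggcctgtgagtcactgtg
Dbp, chr7:45704997-45705296, plus strand: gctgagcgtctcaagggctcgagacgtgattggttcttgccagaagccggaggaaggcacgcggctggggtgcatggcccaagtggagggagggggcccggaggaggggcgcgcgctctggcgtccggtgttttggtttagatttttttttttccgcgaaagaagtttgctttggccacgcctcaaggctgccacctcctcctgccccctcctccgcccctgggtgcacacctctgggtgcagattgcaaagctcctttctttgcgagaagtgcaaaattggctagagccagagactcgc
The match in Arntl began at position 30 from the start, and that in Tspan4 at position -51. A second window listed for each of Arntl and Tspan4 held no match.

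Against control, 54 µg of NRCWE-030 left few differences after 28 days. The PAR bZIP genes Dbp and Hlf and the repressor Nr1d2 rose and Arntl fell, so that 4 of the 10 called genes belonged to the circadian clock. The labels give no hour of lung collection, which could therefore not be compared between the groups for these 4 genes. The other called genes were Tspan4, Avpi1 and Slc13a4, which rose, and Spon2, Mmp9 and Ndufb5, which fell. Of 18656 genes, 10 were called (0.0536%), 6 higher (0.0322%) and 4 lower (0.0214%), and 1216 had an unadjusted p under 0.05 (933 expected by chance), 596 higher and 620 lower. On each of the 10 called genes, every treated array lay beyond every control array, which was so for 297 of all genes (1.59%), and in both groups each gene was well above background on 5 of 5 arrays.

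**Figure D1:**
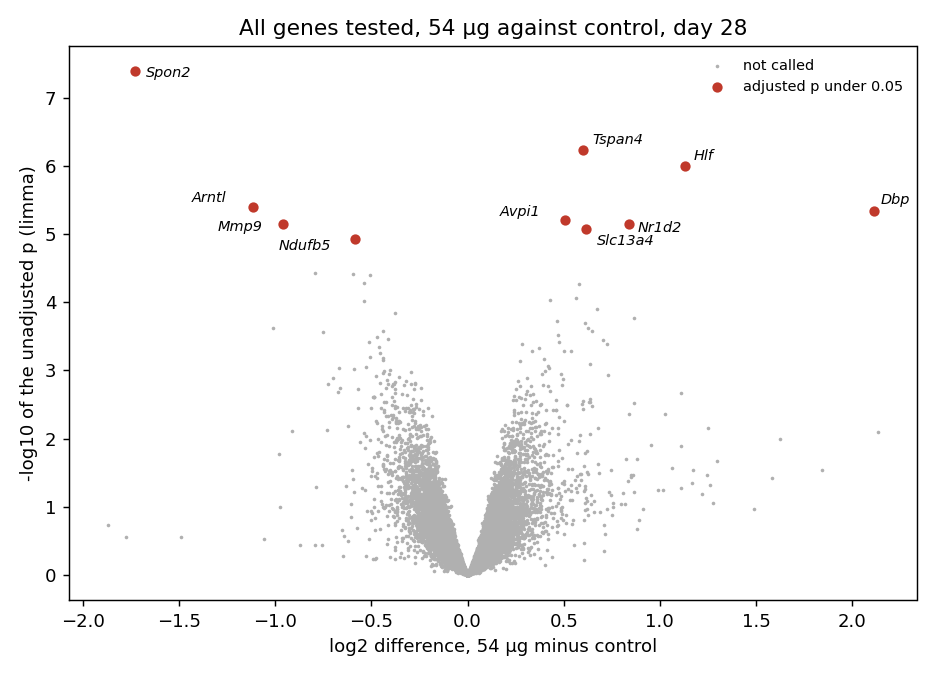
Each point is 1 of the 18656 genes tested, with its log2 difference (54 µg minus control, 5 arrays each) on the horizontal axis and -log10 of the unadjusted limma p on the vertical axis. The 10 called genes are named, and Dbp and Spon2 lie farthest out among them at 2.11 and -1.73.

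The count of called genes leaned on single arrays and on how slides were treated. It was 3 without treated array 2, treated array 4 or control array 2, 5 without control array 1 or control array 3, and 0 without the slide that was bright in Cy3 (664 unadjusted), where 4 arrays were left in each group and the 10 genes had adjusted p from 0.0895 to 0.515. Without array 5 of 18 µg, which shared the fit but not the comparison, it was 33. With slide as a fixed block 92 genes were called, and 32 when it was a random block, while scan day as a fixed block gave 17. The balance of directions moved too, to 15 higher and 2 lower with scan day as a block, and to 1 higher and 6 lower with only the control and 54 µg arrays in the fit, where 7 genes were called and 5 of them were among the 10.

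Dbp, a PAR bZIP activator and among the most strongly cycling transcripts of peripheral tissues, showed the largest called difference. Its values were -0.84, -1.18, -1.36, 0.55 and 0.55 on control arrays 1 to 5 and 1.50, 1.93, 1.56, 1.99 and 1.30 on treated arrays 1 to 5. Controls fell into 3 arrays below -0.8 and 2 at 0.55, and all treated arrays lay above both. The difference was 2.11 ± 0.34 (SE, n = 5 and 5), adjusted p = 0.0168, that is 4.33-fold.

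Hlf, a PAR bZIP factor of the same family, read 1.34, 1.18, 0.83, 1.37 and 1.84 on control arrays 1 to 5 and 2.27, 2.47, 2.29, 2.93 and 2.27 on treated arrays 1 to 5. The highest control, array 5, stayed below the lowest treated array, and treated array 4 was the highest of all. The difference was 1.13 ± 0.16 (SE, n = 5 and 5), adjusted p = 0.00617.

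Nr1d2 encodes REV-ERB beta, a heme-binding repressor of Arntl. It read 0.86, 0.55, 0.42, 0.94 and 1.33 on control arrays 1 to 5 and 1.67, 1.80, 1.64, 1.81 and 1.37 on treated arrays 1 to 5. Control array 5 came within 0.1 of the lowest treated array, so that the groups were apart but narrowly. The difference was 0.84 ± 0.14 (SE, n = 5 and 5), adjusted p = 0.0168.

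Arntl encodes the positive arm of the clock and moved the other way. It read 0.37, 0.55, 0.68, 0.19 and 0.46 on control arrays 1 to 5 and -0.78, -0.68, -0.56, -1.02 and -0.28 on treated arrays 1 to 5. All controls were above 0 and all treated arrays below 0. The difference was -1.11 ± 0.18 (SE, n = 5 and 5), adjusted p = 0.0168, that is 2.17-fold lower.

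**Figure D2:**
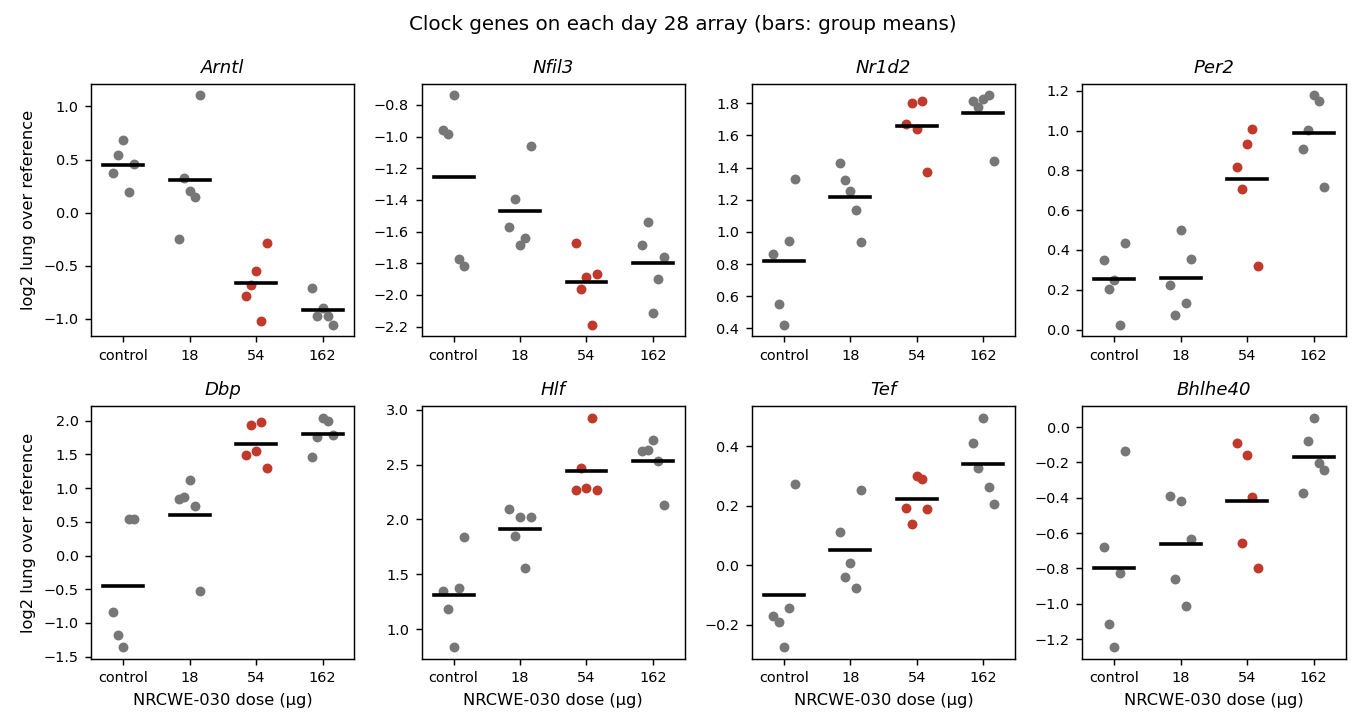
Each panel shows 1 clock gene, with the log2 ratio of lung to reference of each array on the vertical axis and the 4 groups of day 28 (5 arrays each) on the horizontal axis, with bars at the group means and the 54 µg arrays in red. At 54 µg, Arntl and Nfil3 sit low and Nr1d2, Per2, Dbp, Hlf, Tef and Bhlhe40 sit high, with overlap with controls for Nfil3, Per2, Tef and Bhlhe40.

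Of the 21 genes listed for the core clock and its output, all were tested, 3 rose, 1 fell and 17 did not pass. Over all genes, 0.0322% were called higher and 0.0214% lower. The sign was positive for 16 of the 21 and negative for 5, with a median log2 difference of 0.14 (0.00052 over all genes). The groups did not overlap for 4 of the 21 (1.59% of all genes), which were the same 4 genes as those called. At an unadjusted p under 0.05, 7 were higher and 2 lower, against 596 and 620 of all 18656 genes. Per2, a period repressor, had a difference of 0.50, adjusted p = 0.239, but its 2 probes gave 0.92 and 0.083. Tef, the remaining PAR bZIP factor, differed by 0.32, adjusted p = 0.407, and Nfil3, which competes with these factors for D-boxes, by -0.66, adjusted p = 0.377. Nr1d1, encoding REV-ERB alpha, differed by 0.24, adjusted p = 0.739, and Bhlhe40, a further E-box repressor, by 0.38, adjusted p = 0.767. Controls were widely spread for these genes: Nfil3 read -0.96, -0.98, -0.74, -1.77 and -1.82 on the 5 control arrays and -1.67, -1.96, -1.89, -2.19 and -1.87 on the treated ones, so that control arrays 4 and 5 lay among the treated arrays. Npas2, Cry1, Rorb and Ciart were well above background on at most 3 of 5 arrays in either group. The median of the list stayed above 0 in each of the 22 other settings run (0.092 to 0.39).

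Spon2 encodes spondin 2, a secreted matrix protein with a role in innate immunity, and had the smallest adjusted p. It read 0.48, 0.34, 0.27, -0.46 and -0.09 on control arrays 1 to 5 and -1.59, -1.86, -1.73, -1.92 and -1.01 on treated arrays 1 to 5. All treated arrays were below -1 and all controls above -0.5, with treated array 5 nearest to the controls. The difference was -1.73 ± 0.20 (SE, n = 5 and 5), adjusted p = 0.000759, which is 3.31-fold lower, and both probes gave -1.73. Spon2 was called in 21 of the 22 other settings, more often than any other of the 10 genes.

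Tspan4, a tetraspanin known from migrasomes, the organelles that migrating cells leave behind, rose. It read -0.75, -0.70, -1.08, -0.77 and -0.86 on control arrays 1 to 5 and -0.08, -0.17, -0.40, -0.17 and -0.34 on treated arrays 1 to 5. Control array 2 and treated array 3 were the nearest and did not meet. The difference was 0.60 ± 0.08 (SE, n = 5 and 5), adjusted p = 0.00539.

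Mmp9, the gelatinase that neutrophils store in granules, fell. It read -0.93, -0.39, -0.36, -0.79 and -0.64 on control arrays 1 to 5 and -1.80, -1.68, -1.58, -1.66 and -1.18 on treated arrays 1 to 5. Treated array 5 was the highest of its group and control array 1 the lowest of the controls, and they did not meet. The difference was -0.96 ± 0.16 (SE, n = 5 and 5), adjusted p = 0.0168, and its 2 probes gave -0.99 and -0.93.

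Ndufb5, a subunit of mitochondrial complex I, read -0.14, -0.08, -0.09, -0.07 and -0.06 on control arrays 1 to 5 and -0.61, -0.68, -0.58, -0.79 and -0.73 on treated arrays 1 to 5. Controls lay within a narrow band (SD 0.03), with all treated arrays beneath it. The difference was -0.59 ± 0.10 (SE, n = 5 and 5), adjusted p = 0.022.

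Avpi1, named for its induction by vasopressin, read 0.26, 0.18, 0.30, 0.16 and 0.21 on control arrays 1 to 5 and 0.66, 0.92, 0.74, 0.69 and 0.63 on treated arrays 1 to 5. Treated array 2 was the highest and no treated array met a control. The difference was 0.51 ± 0.08 (SE, n = 5 and 5), adjusted p = 0.0168.

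Slc13a4, a sodium-coupled sulfate transporter, read 1.88, 2.11, 2.30, 1.85 and 2.15 on control arrays 1 to 5 and 2.65, 2.84, 2.62, 2.60 and 2.65 on treated arrays 1 to 5. Treated array 2 stood above the other treated arrays, and all 5 were above the controls. The difference was 0.62 ± 0.10 (SE, n = 5 and 5), adjusted p = 0.0173. It shrank to 0.15 where marked backgrounds were left in place and to 0.0022 with the log ratio of the scanner software.

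**Figure D3:**
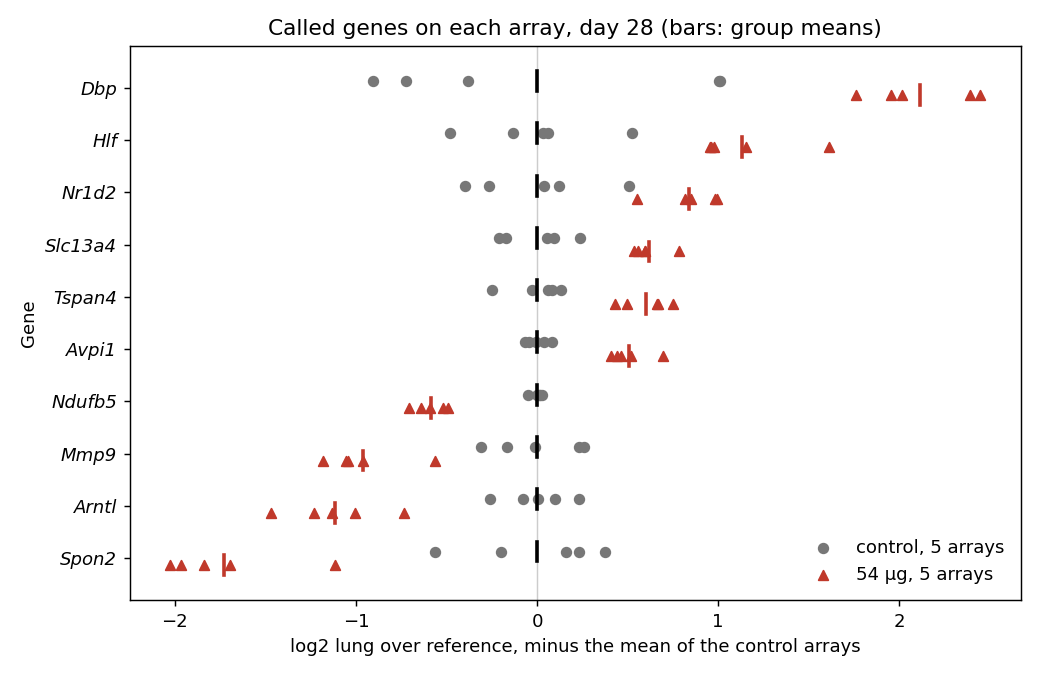
The 10 called genes are ordered by their difference, with the log2 ratio of each array minus the mean of the 5 control arrays on the horizontal axis, control arrays as grey circles, 54 µg arrays as red triangles and bars at group means. No gene shows a treated array within the range of its controls, and controls are widest for Dbp (SD 0.94).

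Treated arrays 1, 2 and 3 shared a slide, and with it a scan day, with control arrays 1, 3 and 5, in this order. Since no treated array overlapped the controls for the called genes, the direction on each slide was fixed, and the sizes are given as a description. The within-slide differences of Dbp were 2.34, 3.29 and 1.01, those of Arntl -1.16, -1.37 and -1.01, those of Spon2 -2.07, -2.13 and -1.64 and those of Tspan4 0.66, 0.91 and 0.46.

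Most heat shock genes had negative differences at 54 µg, and 0 were called (0.0536% of all genes). These chaperones fold proteins and are induced by stress, while Cirbp and Rbm3 are RNA-binding proteins induced by mild cold. Of 22 genes listed, 22 were tested, 0 were called, 19 were lower and 3 higher, with 11 lower and 2 higher at an unadjusted p under 0.05 (620 and 596 of all 18656 genes). The median was -0.28, between -0.39 and -0.25 in the other settings, and 6 of 22 had no overlap between groups, against 1.59% of all genes. Hspa8, the constitutive HSC70, read -1.41, -0.94, -1.20, -1.36 and -1.13 on control arrays 1 to 5 and -2.23, -2.29, -1.55, -1.95 and -1.78 on treated arrays 1 to 5. Every treated array lay below every control, and treated array 3 was the nearest. Its difference was -0.75 ± 0.17 (SE, n = 5 and 5), adjusted p = 0.181.

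Other chaperones had a like pattern. Hsph1, an HSP110 nucleotide exchange factor, read 0.07, -0.11, -0.14, -0.49 and -0.19 on control arrays 1 to 5 and -0.84, -1.70, -0.68, -1.29 and -1.40 on treated arrays 1 to 5, a difference of -1.01, adjusted p = 0.18. For Hsp90ab1, the constitutive HSP90, the difference was -0.51, adjusted p = 0.0573, for its co-chaperone Fkbp4 -0.54, adjusted p = 0.0661 and for Ahsa1, which stimulates the HSP90 ATPase, -0.44, adjusted p = 0.181. Treated array 3 was the highest of its group for all 5 genes, and for Hsp90ab1 it met control array 3 at -1.29. Cirbp lay on the other side, at 0.77, 0.62, 0.64, 0.97 and 1.28 in controls and 1.27, 1.84, 1.46, 1.45 and 1.40 in treated lungs (0.63, adjusted p = 0.18), where control array 5 at 1.28 met treated array 1 at 1.27. Hspa8 was called in 3 of the 22 other settings, among them slide as a random block (adjusted p = 0.0235). Hsp90ab1 and Fkbp4 were called in 4 of the 22 each, Ahsa1 in 2, and Hsph1 and Cirbp in 1 each.

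Inflammatory genes were uneven among the treated mice, and 0 of the chemokine, acute phase, macrophage and interferon genes listed were called. With 10 of all 18656 genes called (0.0536%), 0 in lists of this size is near the share over all genes. Saa3, an acute phase protein made in the lung, read -3.50, -3.31, -3.55, -2.89 and -3.22 on control arrays 1 to 5 and 0.66, -0.63, -0.52, -3.82 and -2.93 on treated arrays 1 to 5. Treated arrays 1, 2 and 3 stood more than 2 log2 units above every control, and treated array 5 lay among the controls and array 4 below them. The difference of the means, 1.85 ± 0.78 (SE, n = 5 and 5), adjusted p = 0.737, was within the spread of the treated group (SD 1.86).

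Lcn2, the siderophore-binding lipocalin, had the same split, at 1.45, 1.46, 1.52, 1.28 and 1.23 on control arrays 1 to 5 and 4.27, 3.94, 4.00, 1.48 and 1.36 on treated arrays 1 to 5 (1.62, adjusted p = 0.587). Ccl2, the chief attractant of monocytes, read -3.92, -4.17, -4.53, -4.01 and -4.68 on control arrays 1 to 5 and -1.58, -2.52, -2.79, -4.30 and -4.23 on treated arrays 1 to 5 (1.17, adjusted p = 0.737). Treated arrays 1, 2 and 3 were again above every control, while arrays 4 and 5 were within the range of the controls for both genes. Ccl12, a close relative of Ccl2, differed by 1.11, adjusted p = 0.605, and Ccl19, a lymphocyte attractant, by 0.68, adjusted p = 0.739.

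The lists were uneven over the same arrays. The mean over 28 chemokines was 0.36, 0.37, 0.25, 0.66 and 0.41 on control arrays 1 to 5 and 1.38, 1.22, 1.17, 0.25 and 0.28 on treated arrays 1 to 5. Of these 28 genes, 18, 16, 18, 3 and 5 lay above all controls on treated arrays 1 to 5, where the counts over all 18656 genes were 3048, 4275, 3750, 3031 and 3220. The mean over 21 acute phase genes was 0.60, 0.64, 0.64, 0.81 and 0.64 in controls and 1.23, 1.16, 1.20, 0.50 and 0.46 in treated lungs. No gene of either list was called (smallest adjusted p 0.366 and 0.587). The chemokine median was 0.33 with 23 of 28 higher, and it was above 0 in each other setting (0.14 to 0.55). Of the 28 chemokines, 8 were higher and 0 lower at an unadjusted limma p under 0.05 (596 and 620 of all 18656 genes). Of the 21 acute phase genes, 3 were higher and 0 lower at that level.

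Markers of other tissue and cells were split over the same treated arrays. The mean over 18 heart muscle markers was 1.74, 2.89, 2.59, 0.61 and 0.60 on treated arrays 1 to 5 and 1.97, 1.77, 2.29, 2.72 and 1.17 on control arrays 1 to 5. For 11 airway secretory markers it was 4.05, 4.61, 5.02, 2.94 and 2.24 and 3.73, 2.34, 3.80, 4.74 and 3.65, and for 13 fat markers 1.63, 1.90, 2.36, 1.00 and 0.66 and 1.59, 0.99, 1.93, 3.94 and 1.40. Treated arrays 4 and 5, which lacked the high chemokine, Saa3 and Lcn2 values, were thus the lowest of their group for heart muscle, airway secretory and fat markers. They were the highest for 7 mesothelium markers, at 0.79, 0.94, 0.31, 1.83 and 1.55 against 1.18, 1.17, 1.25, 0.99 and 1.22 in controls. Control array 4 was the highest control for heart muscle, airway secretory and fat markers and for the chemokine and acute phase means. The part of sampled tissue in the inflammatory values was not tested.

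Macrophage and lysosome genes had a mean over 26 genes of 0.52, 0.60, 0.70, 0.85 and 0.78 in controls and 1.26, 1.26, 1.25, 0.71 and 0.69 in treated lungs, 25 of 26 higher, 0 called and a median of 0.26. Of these 26 genes, 9 were higher and 0 lower at an unadjusted limma p under 0.05 (596 and 620 of all 18656 genes). Trem2, a lipid receptor of macrophages, read -2.06, -1.95, -2.28, -2.03 and -2.10 on control arrays 1 to 5 and 0.14, -0.03, -0.74, -1.93 and -1.62 on treated arrays 1 to 5. All 5 treated arrays were above all controls, arrays 1, 2 and 3 by over 1 log2 unit and array 4 by a margin of under 0.1. The difference was 1.25 ± 0.42 (SE, n = 5 and 5), adjusted p = 0.527. Itgax, the integrin CD11c of alveolar macrophages, differed by 0.45, adjusted p = 0.445, and Csf2, the cytokine GM-CSF that sustains these cells, read 1.21, 1.26, 1.39, 1.13 and 1.22 on control arrays 1 to 5 and 3.33, 2.65, 2.66, 1.60 and 1.50 on treated arrays 1 to 5 (1.11, adjusted p = 0.407), again with all treated arrays above the controls. In whole lung, more cells of a type and more RNA per cell cannot be told apart. Of 10 tested alveolar macrophage markers, 6 were higher and 4 lower (median 0.17), and the list's mean ranged from 3.91 to 4.28 in controls and from 3.81 to 4.55 in treated lungs. The part of macrophage number in these values was not tested.

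Interferon-stimulated genes split differently. The mean over 25 genes was 0.30, 0.56, 0.32, 0.58 and 0.50 on control arrays 1 to 5 and 2.17, 1.78, 0.42, 0.22 and 0.48 on treated arrays 1 to 5, so that only treated arrays 1 and 2 stood above the controls. Of the 25 genes, 24, 21, 3, 1 and 2 lay above all controls on treated arrays 1 to 5. The counts over all 18656 genes were 3048, 4275, 3750, 3031 and 3220. Ifit1, an antiviral RNA-binding protein, read -0.53, -0.33, -0.21, -0.28 and -0.21 on control arrays 1 to 5 and 1.87, 2.28, -0.20, -0.50 and -0.04 on treated arrays 1 to 5, a difference of 0.99, adjusted p = 0.78. Gbp3, a guanylate-binding GTPase, read 3.82, 3.48, 2.11, 2.29 and 2.20 on the treated arrays and at most 2.38 in controls (0.54, adjusted p = 0.784). Cxcl9, a chemokine induced by interferon gamma, was at 3.67, 3.01, 1.91, 0.47 and 0.17 in treated lungs and 0.38, 0.52, 0.51, 1.31 and 0.29 in controls (1.25, adjusted p = 0.746). The list had 24 of 25 genes higher and a median of 0.54, with 0 called (0.0536% of all genes). At an unadjusted limma p under 0.05, 1 was higher (596 of all 18656 genes). Lymphocyte markers were high on the same arrays. The mean over 14 B lymphocyte markers was 1.12, 1.11, 0.38, 0.21 and 0.32 on treated arrays 1 to 5 and 0.28, 0.26, 0.21, 1.29 and 0.47 on control arrays 1 to 5, and that over 9 MHC class II genes was 3.18, 3.20, 2.69, 2.50 and 2.39 and 2.57, 2.66, 2.57, 3.02 and 2.51. Treated arrays 1 and 2 and control array 4 were the highest for both, and the part of lymphocytes in the interferon values was not tested. The mean over 17 T and cytotoxic lymphocyte markers was 1.40, 1.27, 1.07, 0.85 and 0.87 on treated arrays 1 to 5 and 0.88, 1.08, 0.86, 1.24 and 1.11 on control arrays 1 to 5. Treated array 3 thus lay within the range of the controls. Of the 17 markers, 11 were higher and 6 lower (median 0.066). Among them Cd3d was highest on treated arrays 1, 2 and 3, at 4.18, 4.48, 3.72, 3.34 and 3.49 against 3.25, 3.47, 3.33, 3.44 and 3.50 in controls (0.44, adjusted p = 0.652). Gzma (-0.45) and Prf1 (-0.42) were lower.

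**Figure D4:**
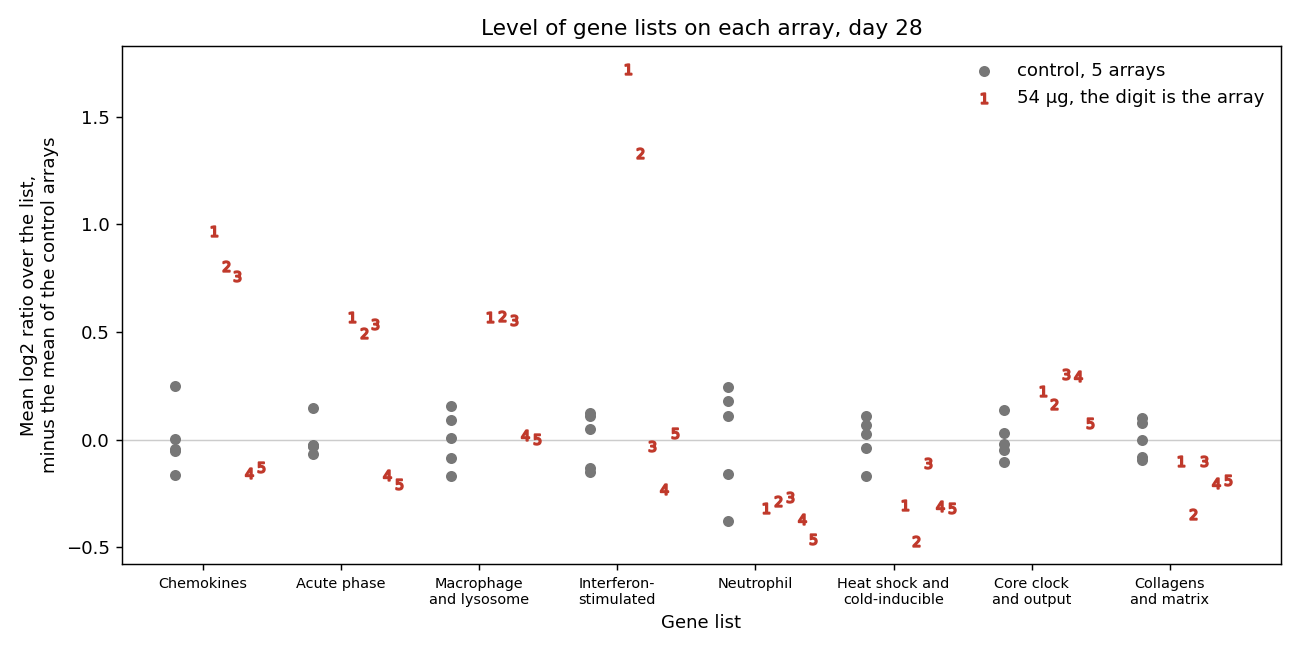
For 8 gene lists, the mean log2 ratio over the list on each array, minus the mean of the 5 control arrays, is on the vertical axis, with control arrays as grey circles and the 54 µg arrays as red digits that give the array number. Arrays 1, 2 and 3 stand apart for chemokines, acute phase and macrophage genes, arrays 1 and 2 for interferon-stimulated genes, and all 5 sit below 0 for neutrophil, heat shock and matrix genes.

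Other doses of day 28 had ranges of their own. The chemokine mean ranged from 0.25 to 1.38 at 54 µg and from 0.30 to 1.43 at 162 µg, with medians of 1.17 and 0.95, and from 0.22 to 0.77 at 18 µg (median 0.43). In controls and at 18, 54 and 162 µg, the heat shock list had group means of -0.18, -0.58, -0.48 and -0.48. For neutrophil genes they were 1.39, 1.10, 1.05 and 1.06, and for collagens and matrix 0.034, -0.17, -0.15 and -0.17. These 3 lists thus lay below the control mean at every dose, and the doses share their controls. For treated arrays 1, 2 and 3, the within-slide differences from a control array were 4.16, 2.92 and 2.69 for Saa3 and 2.82, 2.42 and 2.77 for Lcn2. Treated arrays 4 and 5 lay on slides without a control array of day 28, so that for them slide and animal cannot be told apart.

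Of 17 neutrophil genes tested, Mmp9 fell, 14 were lower and 3 higher, 8 were lower at an unadjusted p under 0.05 (620 of all 18656 genes), and the median was -0.23 (-0.68 to -0.20 in the other settings). The mean over the list was 1.50, 1.57, 1.64, 1.01 and 1.23 on control arrays 1 to 5 and 1.08, 1.11, 1.12, 1.02 and 0.93 on treated arrays 1 to 5, so that control arrays 1, 2, 3 and 5 were above all treated arrays and control array 4 was below 4 of them. Cxcr2, the chemokine receptor that draws neutrophils from blood, read 1.11, 1.67, 1.74, 0.52 and 0.70 on control arrays 1 to 5 and 0.53, 0.46, 0.11, 0.68 and 0.45 on treated arrays 1 to 5. Control arrays 1, 2 and 3 were well above every treated array, control array 5 was just above them, and control array 4 was among them (-0.70, adjusted p = 0.366). Its probe that was well above background on all arrays gave -1.15 and the dim one -0.25. S100a9, the calprotectin subunit that fills neutrophil cytosol, had 7.60 ± 0.39 in controls and 7.15 ± 0.08 in treated lungs (SD, n = 5 each) (-0.45, adjusted p = 0.527), and Retnlg, a resistin-like protein of myeloid cells, 3.46 ± 0.79 in controls and 2.54 ± 0.46 in treated lungs (SD, n = 5 each) (-0.92, adjusted p = 0.537). Il1b, a cytokine that neutrophils and macrophages release, was also lower (-0.73, adjusted p = 0.535). The share of neutrophils or of blood in these lungs was not tested.

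Of 28 collagen and matrix genes, 24 were lower, 7 of them at an unadjusted p under 0.05 (620 of all 18656 genes). None was called (0.0536% of all genes), and the median was -0.13 (-0.25 to -0.093 in the other settings). Eln, encoding elastin, read 2.13, 2.22, 2.27, 1.93 and 2.26 on control arrays 1 to 5 and 1.89, 1.10, 1.57, 1.75 and 1.53 on treated arrays 1 to 5. Treated array 1 at 1.89 came closest to the lowest control at 1.93. The difference was -0.59 ± 0.11 (SE, n = 5 and 5), adjusted p = 0.0573. The fibrillar collagen gene Col5a2 differed by -0.53, adjusted p = 0.562 and Acta2, the actin of smooth muscle and myofibroblasts, by -0.43, adjusted p = 0.565. Of 24 matrix proteases and inhibitors, Mmp9 fell and 18 were lower, among them the proteases Adamts9 (-0.54, adjusted p = 0.1), Adamts1 (-0.48, adjusted p = 0.508) and Adamts15 (-0.31, adjusted p = 0.407). Of the 2 Adamts9 probes, the one well above background gave -0.91 and the dim one -0.17. Of 12 markers of fibroblasts and smooth muscle, 11 were lower (median -0.17).

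Of all 50 gene lists, 3 held a called gene, the clock, neutrophil and matrix protease lists. The neutrophil and matrix protease lists held the same called gene, Mmp9, and no other. Since 10 of all 18656 genes were called (0.0536%), 0 in a list of this size is near the share over all genes. The 28 targets of the oxidant sensor Nrf2 had a median of 0.031, the 25 targets of p53 -0.010, the 28 mitosis genes 0.054, the 27 DNA replication genes 0.016 and the 10 metallothioneins and zinc transporters 0.055. The 32 genes of cholesterol and fatty acid synthesis had a median of -0.025, the 22 cytokines and antagonists 0.084, the 12 chitinase-like and alternative activation genes 0.13, the 20 cytochrome P450 and xenobiotic genes 0.042, the 21 glucocorticoid and fasting-responsive genes 0.043, the 27 immediate early genes -0.11 and the 22 potassium channels 0.00041. The 19 complement genes had a median of 0.21 that turned to -0.040 where marked backgrounds were left in place. The 10 biclusters, gene sets that the study drew from lung disease models of other series, had medians from -0.31 to 0.34, and 0 of their genes were called (0.0536% of all genes). At an unadjusted limma p under 0.05, bicluster-3, which the paper ties to chemokine activity, had 6 of 16 genes higher and 1 lower. Bicluster-7, which it ties to pulmonary fibrosis, had 7 of 19 higher and 0 lower. The mean over bicluster-3 was 1.29, 1.10, 0.915, -0.017 and 0.043 on treated arrays 1 to 5. In controls it ranged from 0.097 to 0.35. For bicluster-7 the mean was 0.19, -0.040, -0.024, -0.50 and -0.43 on treated arrays 1 to 5. In controls it ranged from -0.58 to -0.37. For both, only treated arrays 1, 2 and 3 thus stood above the controls. Each other bicluster had at most 3 such genes, and all 18656 genes had 596 higher and 620 lower.

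Of the 18 lists of cell type markers, 0 held a called gene (0.0536% of all genes were called), and their medians lay between -0.35 (fat) and 0.17 (alveolar macrophage). The part of such tissue in the called genes was not tested.

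Beside the called genes, 10 higher and 10 lower genes had the smallest p among genes that were well above background and did not overlap between groups. Higher were Hkdc1, a hexokinase-like protein (3.82, 3.73, 3.75, 3.51 and 3.86 on control arrays 1 to 5 and 4.52, 4.43, 4.32, 4.26 and 4.03 on treated arrays 1 to 5, 0.58, adjusted p = 0.0661), Akr1b8, an aldo-keto reductase (0.56, adjusted p = 0.1), Itpr3, a calcium channel of the endoplasmic reticulum (0.43, adjusted p = 0.1), and Serpind1, encoding heparin cofactor II (0.67, adjusted p = 0.124). The other 6 higher genes were Zmynd15 (0.86), Ptgs1, encoding cyclooxygenase 1 (0.70), Ctsc, the protease that activates granule serine proteases (0.65), Herc3 (0.61), Snhg3 (0.47) and Fam71e1 (0.47), with adjusted p from 0.15 to 0.211.

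Lower were Adm, the vasodilator adrenomedullin, which read -1.72, -1.54, -1.62, -1.51 and -1.82 on control arrays 1 to 5 and -2.09, -2.83, -2.48, -2.87 and -1.91 on treated arrays 1 to 5 (-0.80, adjusted p = 0.0573), and Eln, Fkbp4, Adamts9, Hsph1, Ahsa1 and Hspa8, given above. The remaining 3 were the RNA-binding proteins Hnrnpab (-0.38, adjusted p = 0.134) and Hnrnpc (-0.47, adjusted p = 0.201, with -0.78 and -0.070 from its 2 probes, the first of which was missing on control array 5) and the tubulin Tubb2a (-0.41, adjusted p = 0.21). Hkdc1 reversed to -0.053 where marked backgrounds were left in place.

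The comparisons of each dose with control share the control arrays, so their values are set side by side without a test of likeness. Dbp differed from control by 1.07 ± 0.34 at 18 µg, 2.11 ± 0.34 at 54 µg and 2.27 ± 0.34 at 162 µg, and Hlf by 0.60 ± 0.16 at 18 µg, 1.13 ± 0.16 at 54 µg and 1.22 ± 0.16 at 162 µg. Arntl differed by -0.14 ± 0.18 at 18 µg, -1.11 ± 0.18 at 54 µg and -1.37 ± 0.18 at 162 µg, and Spon2 by -0.65 ± 0.20 at 18 µg, -1.73 ± 0.20 at 54 µg and -2.10 ± 0.20 at 162 µg. For Tspan4 the values were 0.08 ± 0.08 at 18 µg, 0.60 ± 0.08 at 54 µg and 0.76 ± 0.08 at 162 µg, and for Mmp9 -0.67 ± 0.16 at 18 µg, -0.96 ± 0.16 at 54 µg and -1.11 ± 0.16 at 162 µg. At 18 µg 0 of these 6 genes were called and at 162 µg all 6 were. The 6 genes were chosen as called at 54 µg against the same control arrays, so these counts only describe them. The counts over all genes at those doses are not given here. Hspa8 differed by -1.02 ± 0.17 at 18 µg, -0.75 ± 0.17 at 54 µg and -0.62 ± 0.17 at 162 µg, with a call at 18 µg alone (adjusted p = 0.0202).

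The doses were also compared directly, without the controls. Between 54 and 18 µg, 0 of 18656 genes were called (0%), with 937 at an unadjusted limma p under 0.05. The smallest adjusted p was that of Tspan4, 0.52 ± 0.08 higher at 54 µg (adjusted p = 0.0906), followed by Spon2 and Arntl at -1.08 ± 0.20 and -0.97 ± 0.18 (adjusted p = 0.190 each). With slide as a fixed block, 14 genes were called. Between 54 and 162 µg, 0 genes were called (0%), with 228 unadjusted against 933 expected by chance, and the smallest adjusted p was 1.00. The 54 µg values of the called genes differed from those at 162 µg by -0.16 ± 0.08 for Tspan4, 0.37 ± 0.20 for Spon2, 0.26 ± 0.18 for Arntl and -0.15 ± 0.34 for Dbp.

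**Figure D5:**
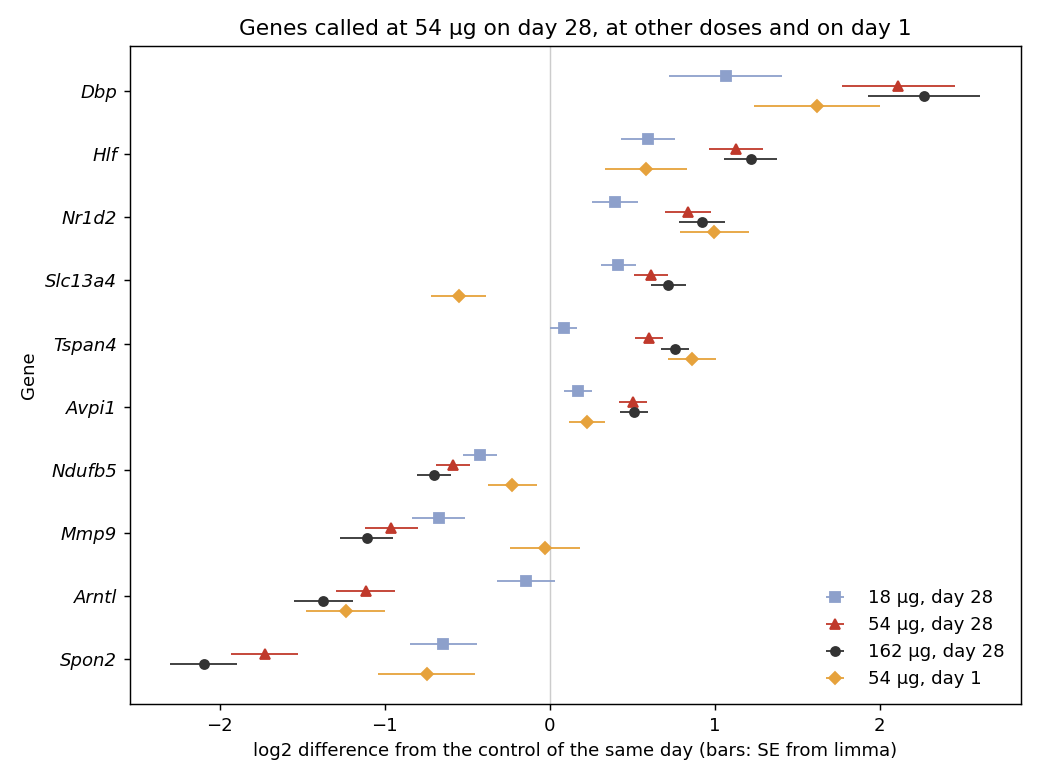
For the 10 called genes, the log2 difference from the control of the same day is on the horizontal axis with its SE from limma, at 18, 54 and 162 µg on day 28 and at 54 µg on day 1 (5 arrays per group). The 3 day 28 doses share their controls, and Slc13a4 is the gene whose day 1 value lies on the other side of 0.

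On day 1 the same dose had its own controls, and 100 genes were called in a fit of all 14 groups, 50 higher and 50 lower. Tspan4 differed from control on day 1 by 0.86 ± 0.14 (adjusted p = 0.000326), Arntl by -1.24 ± 0.24 (adjusted p = 0.00236), Nr1d2 by 1.00 ± 0.21 (adjusted p = 0.00793) and Dbp by 1.62 ± 0.38 (adjusted p = 0.0246). The remaining called genes of day 28 were not called on day 1, Hlf among them at 0.58 ± 0.25 (adjusted p = 0.363), Spon2 at -0.75 ± 0.29 (adjusted p = 0.279) and Mmp9 at -0.03 ± 0.21 (adjusted p = 0.987).

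Whether the effect of 54 µg differed between the days was tested as the difference on day 28 minus that on day 1. This called 9 of 18656 genes (0.0482%), 7 higher and 2 lower, with 1291 at an unadjusted p under 0.05. The protease gene Adamts9 was 0.57 above control on day 1 and -0.54 on day 28, a change of -1.11 ± 0.14 (SE, adjusted p = 2.8e-06). Thbs1, encoding the matrix protein thrombospondin 1, went from 0.41 to -0.36 (-0.77 ± 0.17, adjusted p = 0.0443). Slc13a4, the sulfate transporter, went from -0.55 to 0.62 (1.17 ± 0.24, adjusted p = 0.0230).

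For 7 genes the value was higher on day 28 than on day 1. Myom3, a muscle M-band protein, was -1.12 on day 1 and 0.27 on day 28 (1.39 ± 0.19, adjusted p = 1.2e-05). Hbp1, a transcriptional repressor, was -0.47 and 0.11, Grb7, a receptor adaptor, -0.59 and 0.18, and the cold-inducible Cirbp -0.42 and 0.63. H2-Oa, which modulates peptide loading of MHC class II, was at -0.91 and 0.47, and Ccdc28a, named here after its values were seen, at -0.39 and 0.20. Control arrays of the days also differed for these genes: Adamts9 had a control mean of 0.40 on day 1 and 1.14 on day 28, and Cirbp 1.31 and 0.86. The count was 150 when slide was a fixed block, 122 when it was a random block and 70 when scan day was the block, and all 9 genes were called in each. It was 4 without treated array 2 of day 28, 5 without control array 1 of day 28 and 28, 24, 22 and 18 without control array 5 or 4 of day 28 or treated array 3 or 4 of day 1.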

How the data were processed

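Lung RNA was measured on 2-colour Agilent mouse arrays, 1 mouse per array, in 69 arrays of 14 groups. The deposited scanner files, made by the authors with Agilent Feature Extraction 11.0.1.1 per the file headers, give median spot and local background intensity in each colour, 0 or 1 flags as other values, and a log10 ratio of Cy5 to Cy3. The deposited value matrix holds the authors' log2 ratios. Set against loess ratios made without background subtraction, they gave a median slope of 0.993 and a correlation of 0.996, so that scale and direction are known and the exact centring is not.

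Here, each background marked as an outlier took the median of the unmarked ones on its array, intensities were corrected by normexp (offset 50), and log2 ratios were loess-normalized within arrays in R 4.3.3 with limma 3.58.1 and data.table (version 1.17.8). Figures used Python 3.11.15 with matplotlib 3.10.9. Of 45018 spots, 43379 were not controls and gave 41174 probes, of which 27479 (66.74%) matched 1 of 18749 symbols by RefSeq or Ensembl accession. Spots of a probe, and then probes of a gene, were combined on each array by the median of those not missing, 93 genes with missing values were left out and 18656 were tested. RefSeq (GRCm38.p6) gave names and promoters only, since the array grid used another build.

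Control, 18, 54 and 162 µg of day 28 shared 1 limma fit, and all 14 groups 1 fit for the contrast of days. P-values are two-sided, adjusted by Benjamini-Hochberg over all genes and called under 0.05. They rest on the spread between arrays within groups, pooled over all groups of the fit and drawn by limma towards that of other genes. With 1 mouse per array, this spread holds differences between mice and between arrays together. The number of arrays limits the precision. Genes were named if called, if among the 10 of smallest p in each direction that did not overlap between groups, if among the 4 of smallest p of a gene list, or if in the clock list, together with called genes of the other comparisons and Tspan4, Spon2 and Hspa8. Gene lists got no test. The genes, lists and comparisons were chosen with earlier results of these data known. Alternatives were other background treatments, the deposited log2 and scanner ratios, Aquantile scaling, slide or scan day as a block, dim genes left out, only both groups in the fit, and each array left out in turn. The scripts were tested on simulated data. The result of 1 gene is not reported here.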

Additional observations from a re-analysis of the deposited data

Results flagged for a closer look

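Among the 5 arrays of a group, 1 array stood far from the others for 7 genes, of 146 groups of values checked, where chance gives about 7.3. On treated array 2, Slc13a4 was at 2.84 and Hnrnpc at -1.15. On treated array 3, Acta2 was at -0.25. On control array 4, S100a9 was at 6.92 and Cxcl9 at 1.31. On control array 5, Tef was at 0.27 and Snhg3 at -1.82.

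The effect of 54 µg differed between day 28 and day 1 for 9 genes by the test of the difference in limma. The difference was -1.11 for Adamts9 and -0.77 for Thbs1, and it was 1.39 for Myom3, 0.58 for Hbp1, 1.05 for Cirbp, 0.76 for Grb7, 1.17 for Slc13a4, 1.38 for H2-Oa and 0.59 for Ccdc28a. Adjusted p-values ran from 2.8e-06 for Adamts9 to 0.0443 for Thbs1.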

How the results depend on the processing

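Spon2 was called in 21 of 22 other settings. All 10 called genes kept their direction in the 22. Leaving out arrays or dim genes, Aquantile scaling, and fitting only both groups could not have changed it. Only the other background treatments, the deposited and scanner ratios and the blocks could have. Against control, where 10 genes were called, the count was 1 (Spon2) with marked backgrounds left in place, 92 with slide as a fixed block (9 of the 10 among them), 32 with slide as a random block (10 of the 10), 17 with scan day as a block (4 of the 10; 15 higher, 2 lower), 7 with only both groups in the fit (1 higher, 6 lower), 33 without array 5 of 18 µg and 0 without the slide brightest in Cy3. The last 2 settings were chosen after seeing the data. Leaving out 1 array gave 3 to 15. Against 18 µg, where 0 were called, the count was 14 with slide as a fixed block, 1 with slide as a random block, 14 with scan day as a block, and 0 to 4 leaving out 1 array (4 without treated array 2). Against 162 µg it was 0 in each setting run. For the contrast of days, where 9 were called, it was 3 with marked backgrounds left, 5 without background correction, 21 with the scanner log ratio, 150, 122 and 70 with the 3 blocks in the same order, 14 without dim genes, and 4 to 28 leaving out 1 array. With marked backgrounds left in place, Hkdc1 turned to -0.053, Cd3d to -0.039 and Myom3 to -0.050. Over all settings, single-gene values stayed on their side of the threshold with their direction in 1460 cases, lost the call in 73 and gained it in 70. The cause was not tested, except that leaving out arrays lowers their number. No paired analysis was possible because replicate numbers follow accession order and only name the arrays, and the blocks above are by slide or scan day.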
